A study of Mus musculus with 4 samples.

Results

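The genes described here are 10 regulators of the G1 phase of the cell cycle, set by a list of gene names: the D-type cyclins Ccnd1, Ccnd2 and Ccnd3, the E-type cyclin Ccne1, the kinases Cdk4 and Cdk6, and the inhibitors Cdkn1a, Cdkn1b, Cdkn1c and Cdkn2a. All 10 had a probe, 17 probes in all, among 22911 genes named on the array. RNA was measured in 4 populations of mouse intestinal tumour cells, each on 1 one-colour Agilent array. The mice carried, as the labels spell it, Lgr5CreERT2/+; Ctnnb1lox(ex3)/ox(ex3), and all 4 populations came from them 14 days after tamoxifen. Cre in such mice is driven from the locus of the stem cell receptor Lgr5, and once tamoxifen activates it, it cuts out the exon of Ctnnb1 whose loss stabilises beta-catenin, the effector of Wnt signalling. The cells were gated on the epithelial protein EpCAM and then parted by Lgr5 and by IL17RB, the receptor subunit used as the tuft marker. Lgr5+ tuft marker+ cells are called double-positive here, those labelled Lgr5+ tuft marker- are Lgr5 single-positive, those labelled Lgr5- tuft marker+ are tuft single-positive, and those with the label Lgr5- tuft marker- are double-negative. Normal epithelium and tumours of other genotypes were not analysed here. The sources used here do not give the number of animals behind a sort. There were no replicates, so no difference was tested and each value describes 1 array.

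In G1, D-type cyclins join CDK4 or CDK6 and begin to phosphorylate the retinoblastoma protein, which frees E2F factors to switch on the genes of DNA synthesis. Cyclin E with CDK2 completes that step. The CIP/KIP proteins p21 (Cdkn1a), p27 (Cdkn1b) and p57 (Cdkn1c) bind cyclin-CDK complexes, while the INK4 proteins, among them p16 from the Cdkn2a locus, bind CDK4 and CDK6 alone. In the intestine, cyclin D genes are known as targets of Wnt and Myc in the crypt, and p21, p27 and p57 are known as brakes in cells that leave the cycle.

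A level is the log2 of the scanner's processed signal minus the 75th percentile of that array, so 0 is the 75th percentile. Levels of different genes come from different probes and are not set against each other. The error of a difference comes from the spot errors in the scanner files, with a median of 0.21 in each pair of arrays. It leaves out the variation between animals, sorts and labelling. Genes above background numbered 15327 to 17157 per array, and 14055 were so on all 4. Il17rb was higher in tuft marker+ cells by 2.75 (log2) within Lgr5+ and by at least 3.80 within Lgr5-. Lgr5 was higher in Lgr5+ cells by at least 2.87 with the tuft marker and by 2.39 without it. Epcam stood between 4.50 and 5.55 in every population. With the tuft marker it differed by -0.20 within Lgr5+ and by -1.04 (error 0.20) within Lgr5-. All 12 epithelial markers were above background on all arrays, and of 17 tuft cell markers with a probe 14 were at least 2-fold higher with the tuft marker in each Lgr5 class. Among markers that an EpCAM gate should leave out, the myeloid, stromal and B and plasma cell lists had higher medians in tuft marker+ cells. The median level of 16 myeloid markers was 2.20 in double-positive and 3.25 in tuft single-positive cells, against -1.99 and -0.84 in the tuft marker- cells of the same Lgr5 class. The median of 12 stromal markers was -0.55 and 1.26 with the tuft marker, against -2.40 and -2.40 without it. The endothelial list and the T and NK cell list were not higher in both Lgr5 classes. The median tuft marker difference within Lgr5+ and Lgr5- was -0.92 and 0.71 for endothelial markers, of which 2 and 3 were measured. It was -0.23 and 1.17 for T and NK cell markers. For B and plasma cell markers it was 0.41 and 1.33, higher in both classes. Of these, 1 of 4 measured within Lgr5+ and 3 of 5 within Lgr5- were at least 2-fold higher, and 0 lower. The part of all these markers in the results below was not tested. In RNA from sorted populations, fewer cells that express a gene and less RNA per cell cannot be told apart.

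Of the 10 genes, Cdkn1c had the largest tuft marker difference in each Lgr5 class, and it was higher with the marker in both. The D-type cyclins Ccnd1 and Ccnd2 and the kinase Cdk4 were highest in double-negative cells. In the Lgr5+ class 2 of the 10 genes, Cdkn1c and Cdkn1a, were at least 2-fold higher with the tuft marker, and 1, Ccne1, was at least 2-fold lower. Of all 17501 genes measured in that pair 10.3% were at least 2-fold higher and 8.19% at least 2-fold lower. Within Lgr5-, Cdkn1c was at least 2-fold higher and Ccnd1 and Cdk4 at least 2-fold lower, of 9 measured, where 16.3% of all 17911 genes were higher and 12.2% lower. A single gene of 10 is a share as large as this background, so the counts alone do not set the genes apart.

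**Figure D1:**
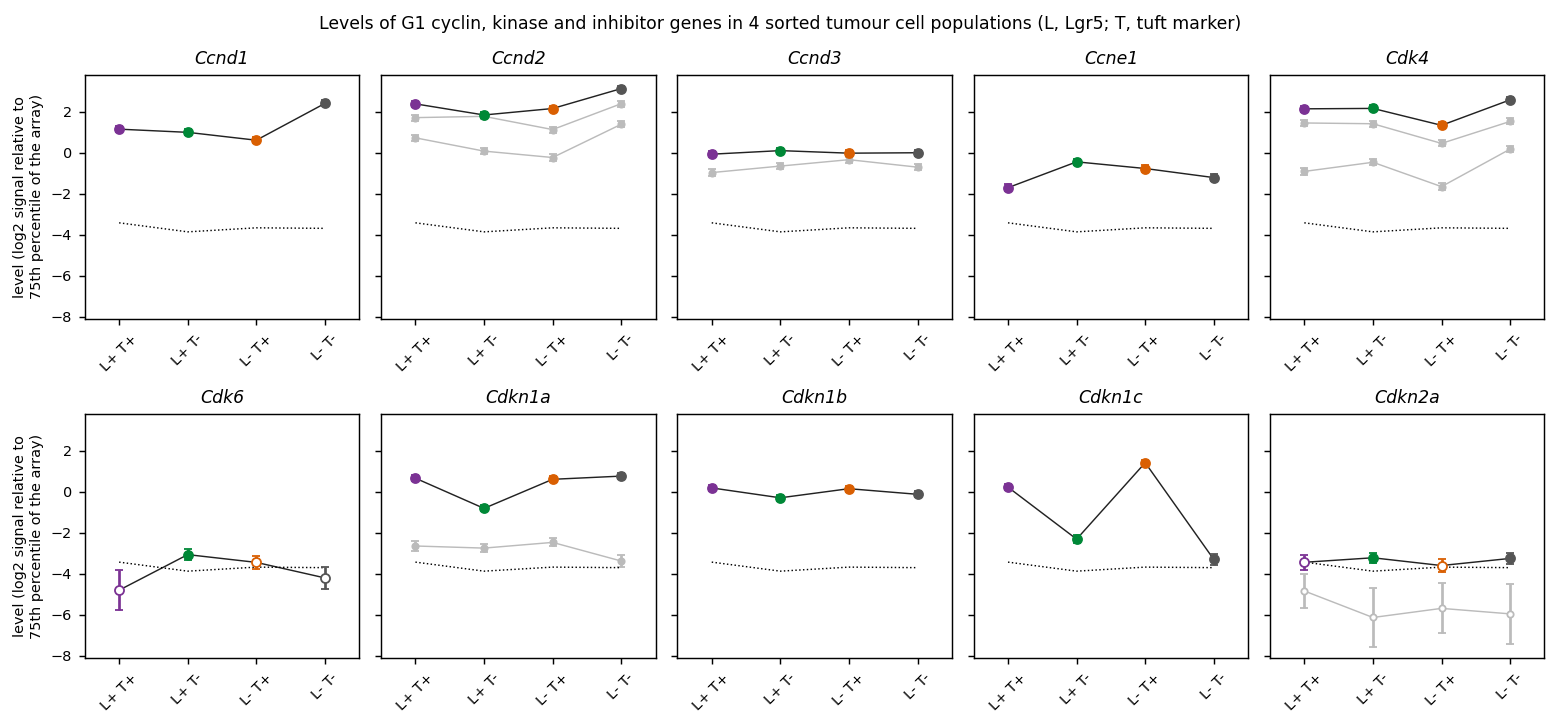
Level of each gene on each array (vertical axis, log2 signal relative to the array's 75th percentile) in the 4 populations (horizontal axis; L, Lgr5; T, tuft marker). Coloured points are the probe that stands for the gene and grey points its other probes, open points were not well above background, bars are the scanner error, and the dotted line is the lowest level read as above background. Cdkn1c runs from -3.30 to 1.42, while Ccnd3 stays between -0.08 and 0.09.

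The 3 D-type cyclins, which bind CDK4 and CDK6, differed in how much they varied. Ccnd1, the gene of cyclin D1, stood at 1.14 in double-positive, 0.98 in Lgr5 single-positive, 0.60 in tuft single-positive and 2.39 in double-negative cells. One array was high, and among the other 3 neighbours in the order of levels were less than 2 errors apart. The outer ones of these 3, double-positive and tuft single-positive, differed by 0.54 (error 0.21), more than 2 errors. With the tuft marker Ccnd1 was therefore 3.47-fold lower within Lgr5- (log2 difference -1.79, error 0.20), and it differed by 0.16 (error 0.20) within Lgr5+. Without the tuft marker it was 2.66-fold lower in Lgr5+ than in Lgr5- cells (-1.41, error 0.20).

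Ccnd2, the gene of cyclin D2, followed the same order at its top. Its level was 2.37, 1.83, 2.15 and 3.12 in double-positive, Lgr5 single-positive, tuft single-positive and double-negative cells. Again the double-negative array lay above the rest, by more than 2 errors. Within Lgr5- the tuft marker difference was -0.97 (error 0.20), just under 2-fold, and the other probes of the gene gave -1.26 and -1.62. Within Lgr5+ its 3 probes ran from -0.06 to 0.65. Among tuft marker- cells the Lgr5 difference was -1.29 (error 0.20), or 2.44-fold lower in Lgr5+ cells, with 1 of its other probes at -0.62 and 1 at -1.31.

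Ccnd3, the gene of cyclin D3, was flat. It stood at -0.08, 0.09, -0.03 and -0.01 in the same order of populations, a whole range of 0.17, which is less than 1 error of a difference. The sign of its tuft marker difference within Lgr5- (-0.02) changed in 4 of 8 processing alternatives. Its second, dimmer probe ran from -0.98 to -0.35.

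Ccne1, which encodes cyclin E1, the partner of CDK2 at the entry to S phase, was not highest in double-negative cells as Ccnd1 and Ccnd2 were. Its level was -1.71 in double-positive, -0.45 in Lgr5 single-positive, -0.78 in tuft single-positive and -1.22 in double-negative cells. The lowest array was the double-positive one and the highest the Lgr5 single-positive one, the same 2 arrays as for the nearly flat Ccnd3. With the tuft marker Ccne1 was 2.39-fold lower within Lgr5+ (-1.26, error 0.24), and the difference was -0.57 after normexp background correction. That correction added an offset of 50 to every signal, which by itself makes log2 differences of dim probes smaller. Within Lgr5- Ccne1 differed by 0.44 (error 0.22). The gene rests on 1 dim probe.

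Cdk4, the catalytic partner of the D-type cyclins, stood at 2.13, 2.15, 1.33 and 2.57 in double-positive, Lgr5 single-positive, tuft single-positive and double-negative cells. Both Lgr5+ arrays were alike, and the Lgr5- arrays lay on either side of them. Within Lgr5- it was 2.36-fold lower with the tuft marker (-1.24, error 0.20), and its other probes gave -1.07 and -1.83. With the authors' deposited scaled values this difference was -0.95. Within Lgr5+ it was -0.02 (error 0.20), a value whose sign changed in 2 of 8 alternatives.

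The promoter of Cdk4 is shown because Cdk4 is a known target of Myc, whose dimer with Max binds the E-box CACGTG, and the window holds 4 of them. Myc itself stood at 3.90, 4.20, 3.95 and 3.92 in the same order of populations. The sequence is the 250 bases before the start site in RefSeq's GRCm38.p6, chr10:127063285-127063534, plus strand, with each CACGTG in capitals.
Cdk4 promoter: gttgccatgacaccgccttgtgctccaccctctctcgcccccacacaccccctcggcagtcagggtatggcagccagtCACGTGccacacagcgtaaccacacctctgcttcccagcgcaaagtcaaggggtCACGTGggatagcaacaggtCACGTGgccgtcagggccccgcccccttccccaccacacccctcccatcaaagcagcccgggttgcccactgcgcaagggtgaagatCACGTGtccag
The copies begin 172, 118, 98 and 11 bases before the start. The window of 250 bases before and 50 after the start was searched in 32851 promoters of 27025 genes, on both strands, CACGTG being its own reverse complement. At least 1 copy was found in 7.15% of windows, and 4 or more in 8 windows, or 0.0244%. Of the 10 genes, 7 had an entry in the promoter table, with 10 windows. Among these Cdk6 had 1 copy of CACGTG and the windows of Ccne1, Ccnd3, Cdkn1a, Cdkn1b and Cdkn2a had 0. CTTTGAT, a core of TCF binding sites, was found once, in the Cdk4 window (3.73% of all windows). TTTNNCGC, an E2F-type motif, was found once in the Cdk6 window and once in each Cdkn2a window (5.17% of all). GGGCGG, the core of the SP1 site, occurred in Cdk4 (3 copies), Ccne1 (4), Cdkn1b (1), both windows of Ccnd3 and of Cdkn2a and 1 window of Cdkn1a, and in 35.7% of all windows. Matches were counted whether or not motifs overlap. These are matches of letters and not shown sites of binding.

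Cdk6, the other partner of the D-type cyclins, was near the limit of the array. It was well above background only in Lgr5 single-positive cells, at -3.06, and its levels elsewhere were -4.79, -3.44 and -4.20 in double-positive, tuft single-positive and double-negative cells. Its differences are limits of 0.64 or less in size, within 2 errors. Setting no floor made the tuft marker difference within Lgr5+ -1.73 and the Lgr5 difference among tuft marker- cells 1.14.

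Cdkn1c encodes p57, an inhibitor of cyclin E-CDK2 and other complexes and an imprinted gene. Its scanner signal before scaling was 154 in double-positive, 35.6 in Lgr5 single-positive, 362 in tuft single-positive and 14.7 in double-negative cells. On the log2 scale these are levels of 0.23, -2.31, 1.42 and -3.30. Both tuft marker+ arrays lay above both tuft marker- arrays, and all neighbours in the order were more than 2 errors apart. With the tuft marker Cdkn1c was 5.79-fold higher within Lgr5+ (2.53, error 0.23), rank 304 of 17501 genes, and 26.3-fold higher within Lgr5- (4.72, error 0.32), rank 54 of 17911. Over the 8 processing alternatives these differences ran from 1.59 to 2.64 and from 2.70 to 5.01. The gene rests on 1 probe. Its level of -3.30 in double-negative cells lies near the floor of that array (-3.70), the lowest level read as above background.

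Many markers of other cells moved with Cdkn1c on the tuft marker axis. In tuft single-positive cells, where Cdkn1c was highest, all 16 myeloid and all 12 stromal markers with a probe were above background, against 14 and 8 in double-negative cells. In double-positive cells 16 and 9 were, against 12 and 9 in Lgr5 single-positive cells. In Lgr5 single-positive cells the macrophage genes Adgre1, C1qa and C1qc and the integrin gene Itgax were not above background, while C1qb (2.12), Lyz2 (2.60), Csf1r (4.73) and Itgam (8.97) were. Past 2-fold with the tuft marker lay 11 of the 16 myeloid markers in the Lgr5+ class and 13 in the Lgr5- class, each of them higher. Within Lgr5+ the myeloid differences ran from -0.61 (Lyz2) to a limit of 6.64 (C1qc), with Csf1r at -0.05 and C1qb at 0.21. The fibroblast genes Lum, Pdgfra and Pdgfrb were above background in tuft single-positive cells and in no other population. The log2 of the summed level ran from 9.08 to 9.64 for the myeloid list, most of it from Itgam (8.97 to 9.33), and from 5.05 to 6.02 for the stromal list. The median level of 17 tuft cell markers was 1.48 and 1.03 in Lgr5+ and Lgr5- tuft marker+ cells and -0.90 and -1.95 in the tuft marker- cells of those classes. These lists share the direction of Cdkn1c on the tuft marker axis. On the Lgr5 axis Cdkn1c differed by -1.19 with the tuft marker and by 0.99 without it. The median differences there were -0.91 and -0.41 for the myeloid list and -1.68 and -0.11 for the stromal list. For the tuft cell list they were -0.03 and 0.81. The part of these lists in the Cdkn1c differences was not tested.

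Cdkn1a, which encodes p21, the best known p53 target among the inhibitors, had a different pattern. It stood at 0.66 in double-positive, -0.81 in Lgr5 single-positive, 0.61 in tuft single-positive and 0.77 in double-negative cells. A single array, the Lgr5 single-positive one, was low, and the other 3 lay within 2 errors of their neighbours. Cdkn1a was therefore 2.77-fold higher with the tuft marker within Lgr5+ (1.47, error 0.21) and differed by -0.16 (error 0.21) within Lgr5-, where the sign changed in 2 of 8 alternatives. Its second probe, which is dim, did not show the low array: it stood at -2.64, -2.74, -2.46 and -3.37, with tuft marker differences of 0.10 and 0.91. With the mean of both probes the difference within Lgr5+ was 0.79, and after normexp it was 0.91. Enterocyte markers were also low on the Lgr5 single-positive array, with a median level of 0.41 against 3.11, 1.88 and 1.46 in double-positive, tuft single-positive and double-negative cells. Of 9 measured, 7 were at least 2-fold higher with the tuft marker within Lgr5+ (median difference 1.95) and 0 lower, and within Lgr5- 1 was higher and 3 lower (median 0.03). Among tuft marker- cells 8 of 9 were at least 2-fold lower in Lgr5+ (median -1.14). Their part in the Cdkn1a difference was not tested.

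Cdkn1b, which encodes p27, varied little. It stood at 0.19, -0.29, 0.15 and -0.12 in double-positive, Lgr5 single-positive, tuft single-positive and double-negative cells. Both tuft marker+ arrays lay above both tuft marker- arrays, by 0.48 (error 0.21) within Lgr5+ and 0.27 (error 0.21) within Lgr5-. No neighbours in its order were 2 errors apart.

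Cdkn2a, whose locus encodes p16 and ARF, stayed at the edge of background. Its brighter probe stood at -3.43, -3.21, -3.59 and -3.25 in the same order, and was well above background only on both tuft marker- arrays. The differences between the arrays were within 1 error. Its other probe was not above background on any array.

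**Figure D2:**
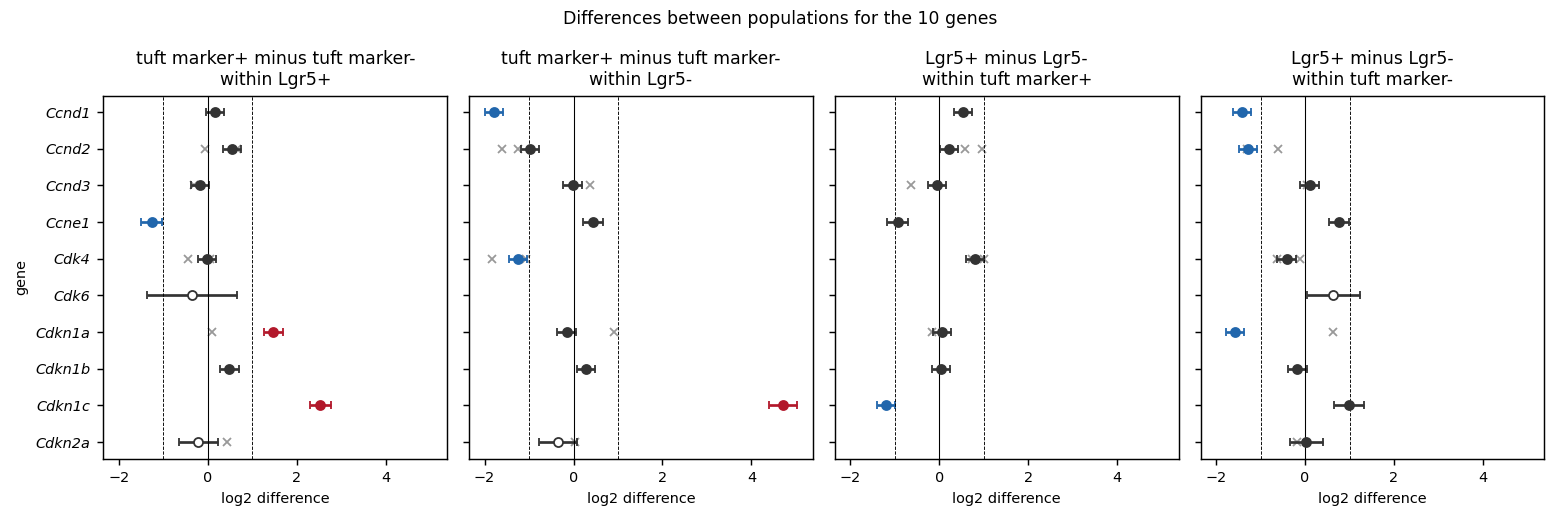
Log2 difference of each gene (rows) in the 4 pairs of populations that differ in 1 marker (panels). Points are the probe that stands for the gene with its scanner error, open points are limits, grey crosses are its other probes where the gene was measured in the pair, and dashed lines mark 2-fold; red is at least 2-fold higher and blue at least 2-fold lower. Cdkn1c stands at 2.53 and 4.72 in the tuft marker panels, and Ccnd1, Ccnd2 and Cdkn1a stand at -1.41, -1.29 and -1.57 in the panel of Lgr5 within tuft marker- cells.

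On the Lgr5 axis 0 of the 10 genes was at least 2-fold higher in Lgr5+ cells. Within tuft marker+ cells 1 of 8 measured genes was at least 2-fold lower, Cdkn1c (-1.19, error 0.21), where 8.86% of all 17625 genes were higher and 11.4% lower. That difference was -0.97 when arrays were scaled to their median and -0.90 after normexp. Within tuft marker- cells 3 of 10 genes were at least 2-fold lower, Ccnd1, Ccnd2 and Cdkn1a, where 6.44% of all 17527 genes were higher and 5.24% lower. For Cdkn1a the difference there was -1.57 (error 0.21), or 2.98-fold, and -0.47 with the mean of its probes. For Cdk4 the Lgr5 difference was 0.80 with the tuft marker and -0.42 without it, both with an error of 0.20. Each of these pairs uses arrays that also enter the tuft marker pairs.

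For several genes the tuft marker difference was not the same in both Lgr5 classes. The difference within Lgr5+ minus that within Lgr5- was 1.95 (error 0.29) for Ccnd1, 1.51 (0.29) for Ccnd2, 1.22 (0.29) for Cdk4 and 1.63 (0.29) for Cdkn1a. It was -1.70 (error 0.32) for Ccne1 and -2.18 (0.39) for Cdkn1c. For Ccnd3 and Cdkn1b it was -0.15 and 0.21, within 1 error of 0.29. The Cdkn1a value is that of its brighter probe. The dim second probe had tuft marker differences of 0.10 within Lgr5+ and 0.91 within Lgr5-, the opposite order. The Cdkn1c value uses its double-negative level near the floor. These contrasts were not tested, since each rests on 4 arrays with no replicate.

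**Figure D3:**
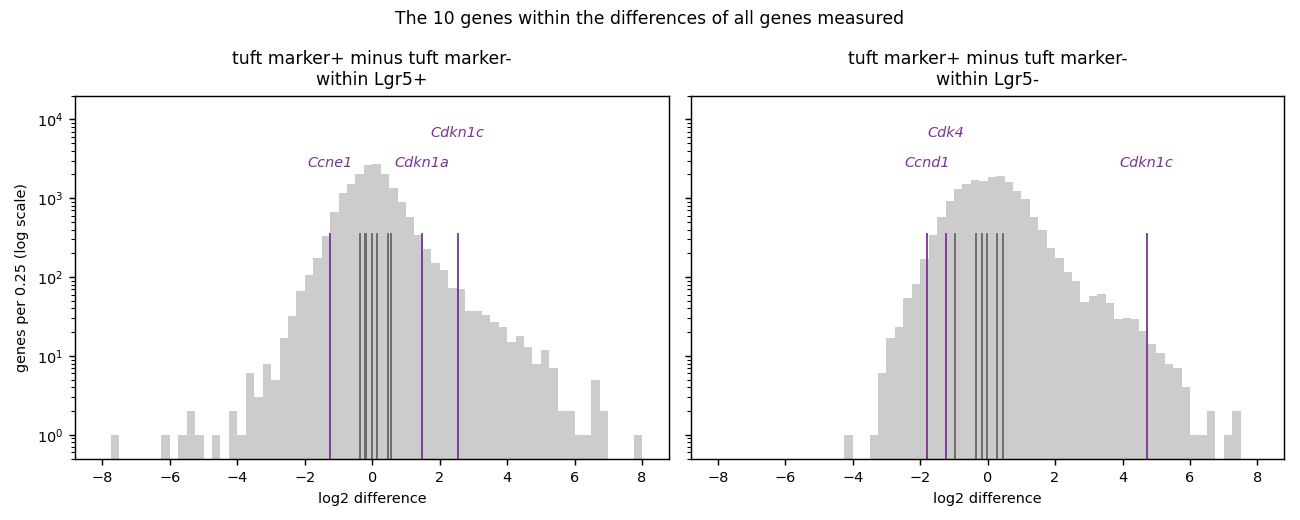
Number of genes (vertical axis, log scale) by log2 tuft marker difference (horizontal axis, bins of 0.25) over all genes measured within Lgr5+ (left) and within Lgr5- (right). Vertical lines are the G1 genes, in purple and named where they are at least 2-fold apart. Cdkn1c lies in the upper tail of both, at 2.53 and 4.72, while Ccne1 at -1.26 on the left and Ccnd1 at -1.79 and Cdk4 at -1.24 on the right lie on the lower side.

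The rest of the pathway was read from lists chosen by function. The tuft marker counts of each list stand beside 10.3% of all genes at least 2-fold higher and 8.19% lower within Lgr5+. Within Lgr5- these shares were 16.3% and 12.2%. Of 13 Rb family and E2F genes, among them substrates of the cyclin D kinases and factors these hold back, 0 were at least 2-fold apart within Lgr5+. Within Lgr5- 2 were at least 2-fold lower with the tuft marker, the E2F partner Tfdp1 (-1.25) and E2f2 (-1.06). The list median was -0.18 in both classes, beside 0.00 and 0.08 over all genes, and its sign changed under normexp within Lgr5+ and with the authors' deposited scaled values within Lgr5-. Rb1, the retinoblastoma gene, stood at -1.84, -1.17, -0.03 and -0.83 in double-positive, Lgr5 single-positive, tuft single-positive and double-negative cells. It was lowest in double-positive and highest in tuft single-positive cells, an Lgr5 difference of -1.81 (error 0.24) with the tuft marker. Without the tuft marker the Rb1 difference was -0.34 (error 0.22), within 2 errors. Its relative Rbl1, which encodes p107, differed by 0.78 and 0.58 with the tuft marker.

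Among 8 other cyclins, kinases and activators of the G1/S step, 2 were at least 2-fold lower with the tuft marker in each Lgr5 class and 0 higher. Cdk2, the kinase of cyclins E and A, was lower in both, by a limit of -1.64 within Lgr5+, where it was not above background with the tuft marker, and by -1.19 (error 0.24) within Lgr5-. Ccna2, the gene of cyclin A2, stood at 0.67, 0.59, 0.11 and 1.76 in double-positive, Lgr5 single-positive, tuft single-positive and double-negative cells. Like Ccnd1 it was high on the double-negative array, with a tuft marker difference of -1.65 (error 0.21) within Lgr5- and 0.08 within Lgr5+. The list median within Lgr5- was -0.68, beside 0.08 over all genes.

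The other INK4 inhibitors, which like p16 bind CDK4 and CDK6, went different ways. Cdkn2b, the gene of p15, stood at -0.03, 1.18, -0.67 and 0.71 in the same order of populations. Both tuft marker+ arrays were low, by -1.21 (error 0.21) within Lgr5+ and -1.38 (error 0.21) within Lgr5-. Cdkn2d, the gene of p19, went the other way, at 1.60, 0.49, 1.52 and 0.58, with differences of 1.11 and 0.95. Cdkn2c, the gene of p18, differed by 0.36 and 0.10.

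Of 9 genes for the turnover of G1 cyclins and inhibitors, 2 were at least 2-fold higher and 1 lower with the tuft marker in each class. Skp2, the ubiquitin ligase subunit that marks p27 for destruction, stood at -0.63 in double-positive cells and at -2.09, -2.46 and -2.28 in Lgr5 single-positive, tuft single-positive and double-negative cells. It was high in that 1 population, by 1.47 (error 0.24) over Lgr5 single-positive and 1.83 (error 0.26) over tuft single-positive cells. Ambra1, whose product directs the destruction of D-type cyclins, differed by 1.40 and 0.18 with the tuft marker within Lgr5+ and Lgr5-. Fbxo31, of the same list, went the other way within Lgr5+. It was the lower gene there, by a limit of -1.72, and was not above background with the tuft marker. Within Lgr5- Fbxo31 was just past 2-fold higher with the tuft marker, at -2.29 against -3.29. Fzr1, an activator of the anaphase-promoting complex in G1, differed by -0.52 and 1.20.

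Of 16 upstream regulators 1 was at least 2-fold higher with the tuft marker in each class, and 0 within Lgr5+ and 5 within Lgr5- were lower. Trp53, the p53 gene, differed by -0.93 and -1.26 (errors 0.20), and Klf5, a transcription factor of dividing crypt cells, by -0.59 and -1.36. Mdm2, the p53 ligase and itself a p53 target, differed by 1.14 and 0.55. Of 20 p53 target genes, 3 of 19 measured within Lgr5+ were higher and 2 lower, beside 10.3% and 8.19% of all genes. Within Lgr5- 3 of 20 were higher and 3 lower, beside 16.3% and 12.2%. Plk2 was higher in both, at 3.76-fold and 2.15-fold, Polk differed by -1.91 and 1.43, and Tigar by 0.25 and -2.05. The list median was 0.34 within Lgr5+ and -0.07 within Lgr5-, where its sign changed in 3 of 8 alternatives. Zmat3, another target, was lower in Lgr5+ cells, with limits of -1.54 among tuft marker+ cells and -1.81 among tuft marker- cells.

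**Figure D4:**
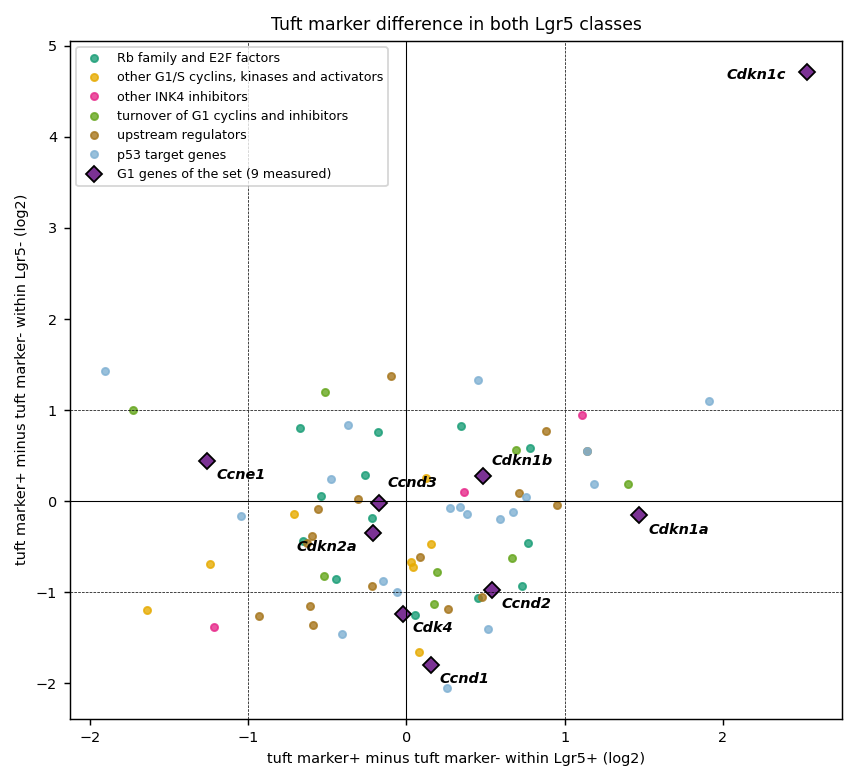
Tuft marker difference within Lgr5+ (horizontal axis) and within Lgr5- (vertical axis), both log2, for the G1 genes measured in both (diamonds) and the genes of the 6 pathway lists (circles, coloured by list); dashed lines mark 2-fold. Cdkn1c lies farthest to the upper right, at 2.53 and 4.72, the p53 target Plk2 is the other gene at least 2-fold higher on both axes, and Ccnd1, Ccnd2 and Cdk4 lie at -1.79, -0.97 and -1.24 on the vertical axis and between -0.02 and 0.54 on the horizontal one.

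Of all 68 pathway genes together, 6 of 67 measured were at least 2-fold higher with the tuft marker within Lgr5+ and 6 lower, beside 10.3% and 8.19% of all genes. Within Lgr5- 6 of 68 were higher and 14 lower, beside 16.3% and 12.2%. On the Lgr5 axis 6 of 67 were at least 2-fold higher in Lgr5+ cells and 6 lower among tuft marker+ cells, beside 8.86% and 11.4% of all genes. Among tuft marker- cells 3 of 68 were higher and 3 lower, beside 6.44% and 5.24%.

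Genes of later phases give the cell cycle state beside these values. Their counts stand beside the same shares of all genes, 10.3% higher and 8.19% lower within Lgr5+ and 16.3% and 12.2% within Lgr5-. Of 20 S phase genes 7 were at least 2-fold lower with the tuft marker within Lgr5- and 0 higher, with a median of -0.66 beside 0.08 over all genes. Within Lgr5+ 1 was higher, the replication helicase gene Mcm5 (1.49), and 0 lower. The lowest within Lgr5- were Mcm2 (-1.83) and Rrm2 (-1.73), the latter a subunit of the enzyme that makes deoxynucleotides. Of 20 G2/M phase genes 10 were at least 2-fold lower within Lgr5- and 1 higher, with a median of -0.96, and 2 were lower within Lgr5+. Those 2 were Ccnb1, the gene of cyclin B1, at -1.29 and -2.17 in the 2 classes, and the mitotic kinesin gene Kif11, at -2.15 and -2.27. The gene higher within Lgr5- was Aurkb (1.67). Within Lgr5- epithelial markers also had a median of -0.85, with 4 of 12 at least 2-fold lower and 1 higher, and within Lgr5+ 0.16. Epcam (-1.04) was among those lower within Lgr5-. The median level of the S phase genes was 0.45, 0.81, 0.44 and 1.53 in double-positive, Lgr5 single-positive, tuft single-positive and double-negative cells, and that of the G2/M genes -0.13, -0.13, -0.59 and 0.23. Both medians were highest on the double-negative array, as were Ccnd1, Ccnd2 and Cdk4. The part of the epithelial markers in the Ccnd1 and Cdk4 differences within Lgr5- was not tested.

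Likeness of profile was measured as the root mean square distance between the 4 levels of 2 genes, each centred on its own mean, over 14055 genes above background on all arrays. All distances rest on the same 4 arrays. The genes nearest to Ccnd1 were Atg2b (0.034), Rpa2 (0.037) and Ears2 (0.046), with 71 genes within 0.2. Nearest to Ccnd2 were Batf2, Cabin1 and Slamf1 (0.036 to 0.058). Nearest to Cdk4 were Hspd1, Usp10 and Tfap4 (0.021 to 0.022), and 1020 genes lay within 0.2. Nearest to Ccne1 were D14Ertd670e, 9930111J21Rik1 and Fggy (0.034 to 0.057). Nearest to Cdkn1a were Hmox2, Man2c1 and Dip2a (0.041 to 0.065), with 27 genes within 0.2. Nearest to Cdkn1c were Lat2 (0.13), Adamdec1 (0.20) and Cx3cr1 (0.22), with 1 gene within 0.2. The 0.2 cut is the same whatever the span of a gene, which was 1.24 for Cdk4 and 4.72 for Cdkn1c. The counts within it therefore do not show how common a profile is. Genes not above background on every array, such as C1qc and Adgre1, were not compared. Lat2 is an adaptor of immune receptor signalling, Adamdec1 a metalloproteinase of gut macrophages and stroma, and Cx3cr1 the fractalkine receptor of macrophages. Among the G1 genes the closest pairs were Ccnd3 with Cdkn1b (0.26), Ccnd1 with Ccnd2 (0.32) and Ccnd1 with Cdk4 (0.38), while Cdkn1c lay 1.73 or more from each of the other 7 genes measured on all arrays.

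Neighbouring genes with a probe, in the order of RefSeq's GRCm38.p6, were looked up for Cdkn1c and Cdkn2a after their values were seen. Trpm5, the tuft cell cation channel gene, is the second gene before Cdkn1c and stood at 4.33, 0.87, 3.79 and -1.84 in double-positive, Lgr5 single-positive, tuft single-positive and double-negative cells. It was high on the same arrays as Cdkn1c, with tuft marker differences of 3.46 and 5.63. Between them lies Kcnq1, a potassium channel gene, which differed by -0.08 and -1.01. On the other side, the imprinted genes Slc22a18 and Phlda2 differed by -0.85 and -0.63 and by 0.41 and 0.16. Next to Cdkn2a, which was near background, lies Cdkn2b, with the differences given above, and on the other side Mtap, a gene of methionine salvage, at 0.18 and 0.91.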

How the data were processed

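The deposited scanner files hold, per the file headers, an intensity for each of 62976 spots that Agilent Feature Extraction 12.0.3.1 had background-subtracted and detrended, with no scaling between arrays; the submitters' processing notes name 11.5.1.1. The authors also deposited a table whose intensity values are the same signals times 1 constant per array (10.9, 7.82, 11.9 and 9.08 for double-positive, Lgr5 single-positive, tuft single-positive and double-negative cells); it is linear and not centred, with column medians of 279, 286, 365 and 253. Per the labels, 13 ng of RNA was labelled with Cy3.

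Control spots and 91 to 122 outlier spots per array were left out, and no spot was saturated. The log2 signal minus the 75th percentile of the non-control spots was the level. Copies of a probe were averaged, and the probe with the highest mean level stood for a gene. Of 56604 probes 32994 were named through RefSeq accessions. Values under an array's floor (-3.43, -3.87, -3.67 and -3.70 in the order above), its lowest level well above background, were raised to it, and differences that rest on such values or on an undetected array are limits. A gene entered a pair if above background on at least 1 array. With 1 array per population no p-value was computed, and the number of arrays limits the precision.

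The steps were tested on simulated data. The 10 genes and all lists were chosen with earlier results of these data known. Named from the lists were genes at least 2-fold apart in both pairs of an axis and some of the 2 highest and 2 lowest of a pair; others (Myc, neighbouring genes) were picked after their values were seen. Tools were R 4.3.3, limma 3.58.1, numpy 2.4.6 and pandas 2.3.3. The array grid was annotated on mm9, so no probe coordinates are given.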

Additional observations from a re-analysis of the deposited data

Results flagged for a closer look

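Several genes went one way in one class of cells and the other way in the other, with 1 array on each side, and none of these contrasts was tested. On the Lgr5 axis Ccnd1 differed by 0.54 among tuft marker+ cells and by -1.41 among tuft marker- cells. Cdk4 differed there by 0.80 and -0.42, Ccne1 by -0.93 and 0.77, and Cdkn1c by -1.19 and 0.99. The -0.42 of Cdk4 (error 0.20) is just past 2 errors, and the other Cdk4 probes gave -0.11 and -0.64. The 0.99 of Cdkn1c uses its double-negative level near the floor, and ran from 0.21 to 1.06 over the alternatives. On the tuft marker axis Ccnd2 differed by 0.54 within Lgr5+ and by -0.97 within Lgr5- cells, and Ccne1 by -1.26 and 0.44. Of the other Ccnd2 probes 1 gave -0.06 and -1.26, with no change of sign, and 1 gave 0.65 and -1.62.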

How the results depend on the processing

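No difference of a G1 gene that was at least 2-fold changed its sign in any of 8 alternatives. Those of Cdkn1c on the tuft marker axis, of Ccnd1 within Lgr5- and within tuft marker-, and of Ccnd2 within tuft marker- stayed at least 2-fold in 8 of 8. Some alternatives could not change these values. The other detection flag and the lack of a filter act only on values at or under background, and these 3 genes were above it on all arrays. The mean of probes leaves Ccnd1 and Cdkn1c, with 1 probe each, as they were. Of 296 gene differences under alternatives 251 moved by less than the scanner error, and these include the ones that could not move. In the order tuft marker within Lgr5+ and within Lgr5-, then Lgr5 with the tuft marker and without it, the main counts of all genes at least 2-fold higher and lower were 1806 and 1433, 2922 and 2192, 1562 and 2008, and 1129 and 919, and those of the 68 pathway genes were 6 and 6, 6 and 14, 6 and 6, and 3 and 3. Normexp on the mean signal, as planned, was not run; normexp on the median signal, chosen after seeing the data, gave 661 and 251, 947 and 787, 370 and 392, and 132 and 166 over all genes, 2 and 1, 2 and 7, 1 and 2, and 0 and 1 over the pathway, and among the G1 genes 1 higher and 0 lower within Lgr5+ and 0 lower within tuft marker+. Scaling to the median gave 3421 lower within Lgr5- (3 pathway genes higher), and within tuft marker+ 2589 higher and 1281 lower (12 and 3 of the pathway, 1 and 0 of the G1 genes). The authors' deposited scaled values gave 4426 and 1144 within Lgr5- (12 and 6 of the pathway, 1 G1 gene lower), and 3 pathway genes higher and 2 G1 genes lower within tuft marker+ and 1 G1 gene higher within tuft marker-. The percentile over probes detected on all arrays gave 1 G1 gene higher within tuft marker-, and the mean of probes 1 higher within Lgr5+. The positive and significant flag, and no filter, each gave 2841 lower within Lgr5+, 4385 higher within Lgr5-, 3756 lower within tuft marker+, 2327 and 1708 within tuft marker-, and 2, 2 and 1 G1 genes lower within Lgr5+, lower within tuft marker+ and higher within tuft marker-, Cdk6 being the added one. The share of higher among 2-fold calls, 57.1% within Lgr5-, was 37.0% scaled to the median and 79.5% with the authors' values. Within Lgr5+ 55.8% became 72.5% after normexp. Within tuft marker+ 43.8% became 66.9% scaled to the median, 28.0% with the authors' values and 54.1% after quantile normalization. Within tuft marker- 55.1% became 41.3% scaled to the median and 44.3% after normexp. The median of all genes within Lgr5-, -0.04, became -0.27 scaled to the median and 0.26 with the authors' values, and that within tuft marker+, 0.05, became 0.27 and -0.11. Normexp here added an offset of 50 to every signal, which by itself makes log2 differences smaller, most of all for dim genes. How much of each change after normexp this makes up was not measured. The causes of the other changes were not tested. No paired analysis was possible because each population has 1 array. Genes near background, Cdk6 and Cdkn2a, are limited by signal. So is Cdkn1c in double-negative cells, at -3.30 with a floor of -3.70.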
